A study of Mus musculus with 21 samples.

Results

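Interferon-stimulated antiviral effectors are the genes whose products block or sense viruses inside a cell and whose transcription is the textbook readout of interferon signalling. The 50 genes described here were picked by symbol, in 12 families, and all 50 had a row in the deposited tables of 22483 genes, of which 47 of the 50 and 12360 genes in all had enough counts to be tested. They were followed in MEDEP cells of the BRC5 line, mouse erythroid progenitors derived from embryonic stem cells, which were grown with stem cell factor (SCF) and dexamethasone until both were withdrawn and erythropoietin (Epo, 4 U/ml) was added. Polyadenylated RNA was sequenced in 21 libraries, 3 described as biological replicates in each of 7 groups: 0 h (still in SCF and dexamethasone), 12, 24, 36, 48 and 72 h in Epo, and 12 h in Epo together with SA (succinyl acetone, a compound that blocks the heme pathway). No group had interferon or a virus added as far as the labels say, all groups are 1 cell line, and no group was kept without Epo beyond 0 h, so time in Epo and time in culture cannot be told apart. The question asked of the data was when each family was switched on, or left alone, over the course and whether SA altered it.

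Type I interferons bind a receptor of the subunits Ifnar1 and Ifnar2, whose kinases Jak1 and Tyk2 phosphorylate transcription factors of the STAT family, among them Stat2. A complex that holds Stat2 and Irf9 binds the interferon-stimulated response element (ISRE) in promoters, while the signal of interferon gamma is read at the gamma-activated site (GAS). The ISRE is also bound by other members of the interferon regulatory factor (IRF) family, among them Irf1, Irf3 and Irf7.

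The libraries held 16.7 to 39.3 M estimated counts. The hemoglobin genes took 0.0467 to 0.0752% of the counts at 0 h and 31.7 to 37.1% at 72 h. Levels are given as deposited TPM (a length-corrected share of all transcripts in the library), and tested changes as log2 changes scaled by TMM, which sets the middle of the tested genes near 0. In TPM the median of all tested genes moved by -1.89 (log2) from 24 to 36 h and by -3.48 from 0 to 72 h, against -0.03 and -0.13 after TMM. A change is relative to the other genes of the same library, and fewer cells with the RNA or less RNA per cell cannot be told apart in bulk samples. The erythroid markers Gata1, Klf1, Epor, Alas2 and Slc4a1 had counts in every library, with Alas2, the first enzyme of erythroid heme synthesis, at 16.1 to 19.6 TPM at 0 h and at 1099 to 2531 TPM at 72 h. Of other cells that could supply antiviral transcripts, the 10 macrophage markers summed to at most 2.46 TPM at any time and to 0.382 to 0.717 TPM at 72 h, with Cd14 at 0 counts there. The 5 dendritic cell markers summed to at most 0.0608 TPM at 72 h, the 8 neutrophil markers to at most 2.43 TPM (at 48 h), the 6 lymphocyte markers to at most 1.58 TPM and the 5 fibroblast or feeder markers to at most 2.27 TPM. The 7 megakaryocyte markers did move, from 12.8 to 16.2 TPM at 0 h to 149 to 172 TPM at 36 h and 28.1 to 59.7 TPM at 72 h, and the 6 mast cell markers went from 36.8 to 61.8 TPM at 0 h to 4.09 to 7.96 TPM at 72 h. On the TMM scale of the tests some of these low markers rose as well. Csf1r, the macrophage receptor, rose by 6.11 ± 0.37 from 0 to 72 h (0.0646 to 0.343 TPM in the mean). It was called higher at each step up to 48 h, most at 12 h (2.65 ± 0.42). The mast cell protease Mcpt4 rose by 9.31 ± 0.31 over the course, while Hdc and Ms4a2 fell by 5.07 and 4.77. Itga2b and Itgb3, the megakaryocyte integrins, rose by 3.97 ± 0.17 and 3.95 ± 0.37 at the 36 h step. Both had risen before it: Itgb3 by 4.04 ± 0.72 at 12 h and 2.11 ± 0.40 at 24 h, and Itga2b by 2.91 ± 0.17 at 24 h after a fall of 0.69 at 12 h. The neutrophil gene Ltf went from 0 counts at 0 h to 102 at 36 h, summed over 3 libraries. Of the 2 tested macrophage, 2 neutrophil, 5 mast cell and 4 megakaryocyte markers, 1, 2, 2 and 4 rose over the course. Their part in the results was not tested.

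The effector genes were mostly near silence or at a steady low level for the first day, and most of them then climbed at each of the 3 later steps. From 24 to 36 h, 42 of the 47 tested genes rose and 1 fell (edgeR quasi-likelihood test, Benjamini-Hochberg adjusted p of 0.05 or less), where 34.1% of all tested genes rose and 39% fell. From 36 to 48 h 42 of 47 rose and none fell, against 20% and 29.7% of all genes, and from 48 to 72 h 45 of 47 rose and none fell, against 24.7% and 34.5%. Over the whole course, from 0 to 72 h, 47 of the 47 tested rose, against 43.3% of all genes rising and 46.5% falling. Members that were silent early passed the count filter only through the late libraries where they were high, so these counts and medians describe the tested members, and the 3 untested ones (Cmpk2, Ifitm3 and Lgals3bp) had at most 21 counts in a library. The median log2 change of the tested members was 3.39 at the 36 h step, 2.03 at the 48 h step, 2.37 at the 72 h step and 8.70 over the whole course, with medians over all tested genes of -0.03, -0.07, -0.05 and -0.13. With the 3 members that had no counts at 0 h set to a floor of 3 counts, the median of 8.70 became 8.51.

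The first day looked different. At 12 h 11 members rose and 5 fell, against 25.3% and 27.6% of all genes, and from 12 to 24 h 4 rose and 6 fell, against 19.1% and 22%. These shares are near or below the background, and the median change was 0.01 and 0.04. Members near silence on the first day could hardly be called there. In fits of only the 2 groups compared, 29 members passed the filter at each step. At 12 h 13 of them rose and 5 fell, against 3863 and 3910 of 11072 genes, with a member median of 0.36. At 24 h 5 rose and 8 fell, against 2912 and 3356 of 11065 genes, with a member median of -0.09. Of the 47 tested members, 22 shared 1 pattern: no call at 12 and 24 h and a rise at each of 36, 48 and 72 h. The first called rise came at 12 h in 11 members, at 24 h in 2 (Oas3 and Trim25), at 36 h in 30, at 48 h in 2 (Ifit2 and Oas1g) and at 72 h in 2 (Trim30c and Ddx60).

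**Figure D1:**
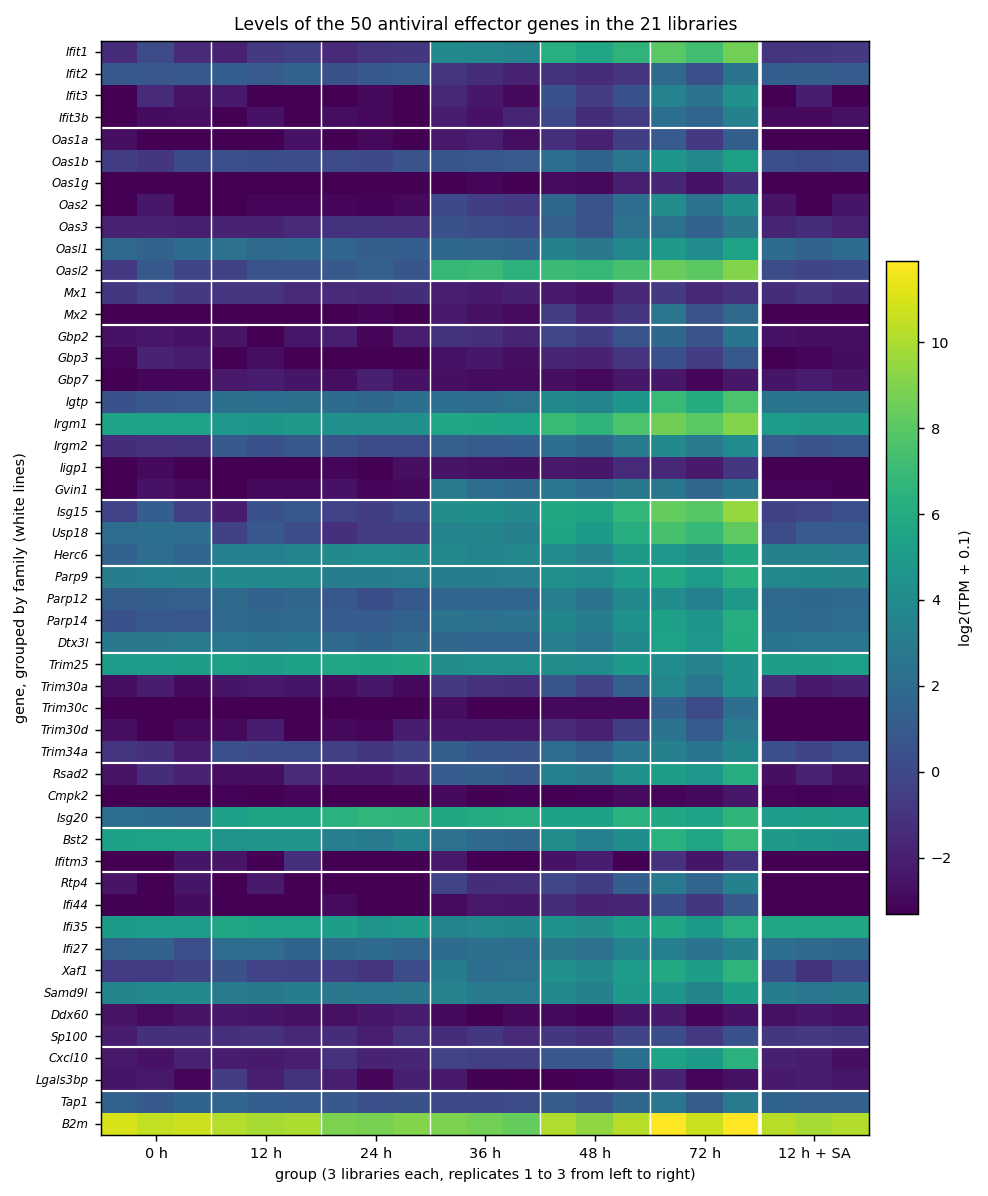
Level of each of the 50 genes (rows, grouped by family) in each of the 21 libraries (columns), as log2(TPM + 0.1). Most rows stay dark up to 24 h and brighten from 36 to 72 h, while B2m, Irgm1, Trim25, Ifi35 and Bst2 are bright from the start, and the SA columns resemble those of 12 h.

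**Figure D2:**
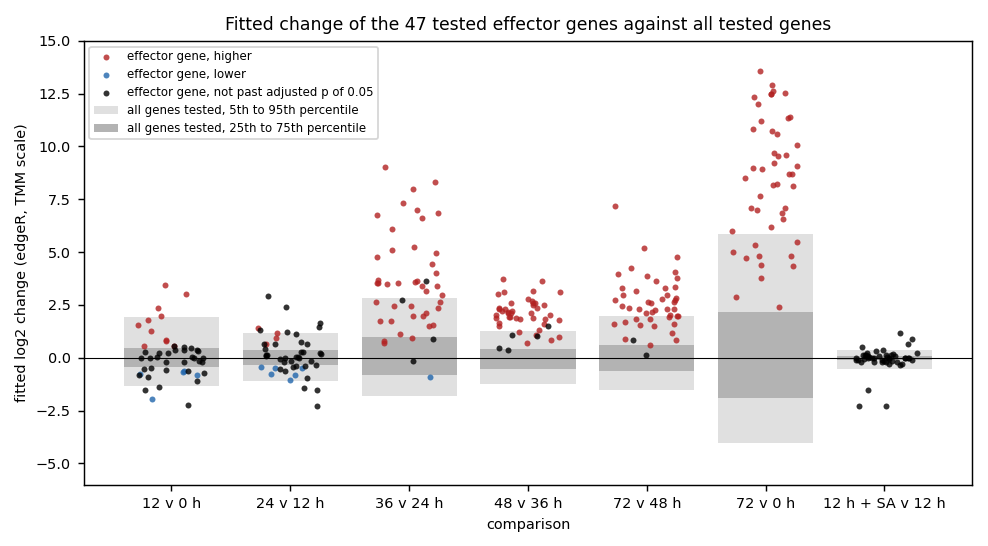
Fitted log2 change (edgeR, TMM scale) of the 47 tested members in 7 comparisons, coloured by call, over bars that span the 5th to 95th and the 25th to 75th percentiles of all 12360 tested genes. The points straddle 0 at 12 and 24 h and with SA, and lie mostly above the bars at 36, 48 and 72 h.

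How much of the 36 h step shows depends on the scale, and 80.6% of all tested genes had all 3 of their TPM values at 36 h below those at 24 h. In TPM the median member change was 0.67 from 24 to 36 h, 1.15 from 36 to 48 h, 1.59 from 48 to 72 h and 3.93 from 0 to 72 h, and 35, 45, 45 and 45 of the 47 changes were above 0. Tested in limma on log2(TPM + 0.1) over the 33 members with a mean TPM of at least 1, 17 rose and 5 fell at the 36 h step, and 32 rose and 1 fell (Trim25) over the whole course. In the same fit 4.67% of the calls over all genes at 36 h were rises, against 46.6% after TMM, and 18% when counts were scaled by library totals alone, where 37 members rose and 2 fell. The share of rises among all calls was, in TPM, after TMM and with library totals in that order, 13%, 46.4% and 19.6% at the 24 h step, 3.77%, 40.2% and 17.2% at the 48 h step, and 7.15%, 41.8% and 29.5% at the 72 h step. Over the whole course it was 5.57%, 48.2% and 24.4%. For 27 of the 47 tested members all 3 TPM values at 36 h lay above all 3 at 24 h, against 5.36% of all tested genes, and for 9 members all 3 lay below, against 80.6%. At 48 h against 36 h the counts were 34 above and 0 below, against 3.7% and 49.9% of all genes, and at 72 h against 48 h they were 28 and 0, against 5.02% and 47.2%. At 72 h against 0 h they were 38 and 1, against 7.48% and 80.8%. On the first day they were 14 and 7 at 12 h against 0 h, with 28.8% and 37.1% of all genes, and 6 and 14 at 24 h against 12 h, with 11.9% and 51.6%. In TPM 43 of the 50 members were highest at 72 h. Mx1 was highest at 0 h, Gbp7 and Lgals3bp at 12 h, Isg20, Trim25 and Ddx60 at 24 h and Gvin1 at 48 h, and after TMM scaling all 50 were highest at 72 h.

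Promoters are shown because the members moved together late in the course. RefSeq promoter windows (GRCm38.p6, 250 bases before to 50 after the start site) were found for 39 of the 50 members. The ISRE core searched was GAAANNGAAA on either strand and the GAS was TTCNNNGAA, which is its own reverse complement, and matches that overlap each other were kept. At least 1 window held the ISRE core in 22 of the 39 members (56.4%), against 3.99% of the 27025 genes in the table, and GAS in 10 (25.6%), against 9.55%. Both were present in 6 members (Gbp7, Igtp, Irgm2, Oas1a, Bst2 and Ifitm3). The genes were picked as interferon targets, so this describes the list and is not a finding about these cells. Below, the stretch upstream of the start is given on the gene's own strand for members that carry the results, with bases of the ISRE core in capitals.
Ifit1: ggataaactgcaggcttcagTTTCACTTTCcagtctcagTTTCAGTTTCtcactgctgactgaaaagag
Ifit3: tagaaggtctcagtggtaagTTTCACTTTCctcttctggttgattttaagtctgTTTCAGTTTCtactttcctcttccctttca
Oas1a: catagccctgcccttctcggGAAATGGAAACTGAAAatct
Isg15: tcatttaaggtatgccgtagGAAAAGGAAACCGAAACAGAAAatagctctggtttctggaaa
Igtp: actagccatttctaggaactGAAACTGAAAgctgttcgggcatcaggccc
Irgm1: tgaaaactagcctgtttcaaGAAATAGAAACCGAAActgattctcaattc
Rsad2: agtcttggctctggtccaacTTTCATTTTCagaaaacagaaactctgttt
Bst2: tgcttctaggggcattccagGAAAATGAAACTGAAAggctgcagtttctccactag
Cxcl10: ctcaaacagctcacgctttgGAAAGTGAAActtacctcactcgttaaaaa
Ddx60: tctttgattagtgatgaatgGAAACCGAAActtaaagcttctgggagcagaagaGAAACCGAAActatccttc
B2m: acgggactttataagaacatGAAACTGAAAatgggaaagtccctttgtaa

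In GRCm38.p6 the Ifit1 stretch is chr19:34640765-34640833 (plus strand), with matches from 104 to 76 bases before the start. Ifit3 is chr19:34583353-34583436 (plus), and the same 84 bases, with 0 differences, stand before Ifit3b at chr19:34607749-34607832. Oas1a is chr5:120907526-120907565 (minus), with matches 20 to 5 bases before the start, and the 38 bases before Oas1g (chr5:120887614-120887651) are the same with 0 differences. Isg15 (chr4:156200855-156200916, minus) has 3 overlapping matches, 78 to 57 bases before the start. Igtp (chr11:58199502-58199551, plus) and Irgm2 (chr11:58214893-58214942, plus) differ at 2 of 50 bases. The other stretches are Irgm1 at chr11:48871421-48871470 (minus), Rsad2 at chr12:26456543-26456592 (minus), Bst2 at chr8:71537567-71537622 (minus), Cxcl10 at chr5:92349073-92349122 (minus), Ddx60 at chr8:61928014-61928086 (plus) and B2m at chr2:122147528-122147577 (plus). At the 36 h step the median log2 change was 3.54 in the 21 tested members with the core, 18 of them called higher, and 2.00 in the 15 with a window but no core, 13 of them called higher and 1 lower. The ranges overlapped, from -0.16 to 7.30 with the core and from -0.94 to 8.33 without it, and Oasl2, with the 8.33, had no match in its window, while Ddx60, with 2 matches, had the -0.16.

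**Figure D3:**
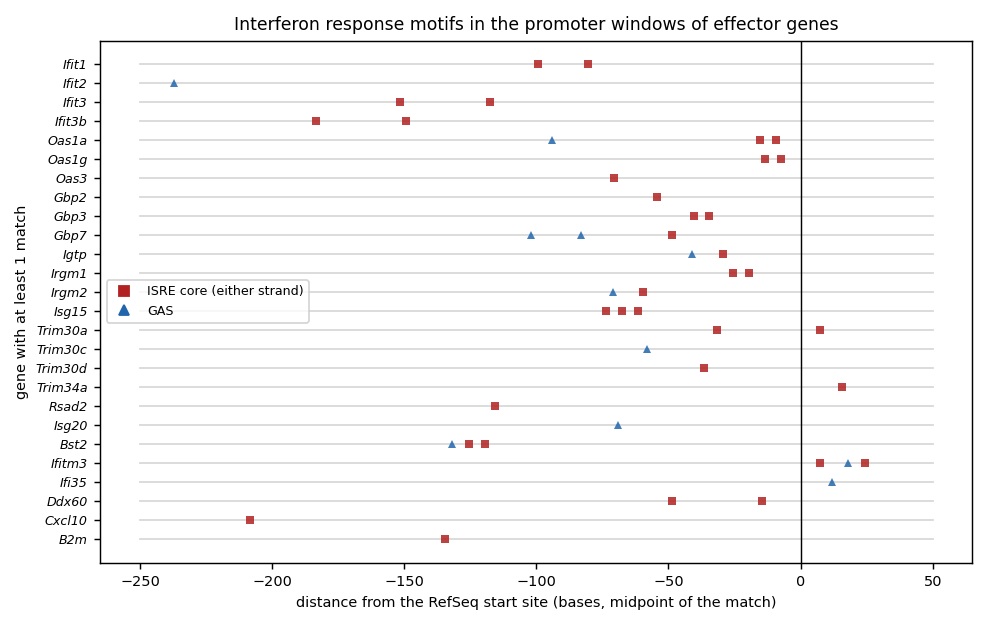
Midpoints of ISRE core matches (squares) and GAS matches (triangles) by distance from the RefSeq start site, for the 26 members with at least 1 match in the 300-base window. Most squares lie within 150 bases before the start, and Cxcl10 has its match farthest upstream among the ISRE squares.

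The IFIT genes, whose products hold viral RNA away from ribosomes, lie together on chromosome 19 (4 genes, 34550694 to 34650009, GRCm38). Ifit1 was at 0.286, 1.01 and 0.273 TPM at 0 h and at 0.260, 0.380 and 0.463 TPM at 24 h. It reached 15.3, 13.2 and 11.3 TPM at 36 h, 77.0, 48.2 and 95.8 TPM at 48 h and 254, 154 and 402 TPM at 72 h. From 36 h on, every library of a group lay above every library of the group before it. The log2 changes of these steps were 7.30 ± 0.36 (SE, n = 3 against 3 here and below), 3.09 ± 0.25 and 2.62 ± 0.24. Ifit3 and Ifit3b, near-identical copies, came later in level: Ifit3 was at 0.242, 0.0972 and 0.0286 TPM at 36 h and at 10.7, 5.71 and 20.5 TPM at 72 h. Ifit3 shares 61.8% of its 31-base words with other genes, nearly all with Ifit3b, so the split of reads between them is uncertain.

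Ifit2 went against its neighbours. It was the IFIT gene with the most transcripts at 0 h (1.84, 1.63 and 1.82 TPM), stayed there at 24 h (1.26, 1.91 and 2.02 TPM) and was low in all 3 libraries at 36 h (0.417, 0.303 and 0.176 TPM). The change from 24 to 36 h was -0.94 ± 0.36 (edgeR adjusted p = 0.0264), the only called fall of a member at that step, and it missed the threshold without 24 h replicate 3 (adjusted p = 0.069) and without any 1 of the 36 h libraries (0.0534 to 0.0684). After TMM scaling Ifit2 then rose by 1.51 ± 0.38 at 48 h and by 4.04 ± 0.27 at 72 h, to 3.68, 1.23 and 5.67 TPM. Its 48 h values of 0.365, 0.286 and 0.418 TPM overlapped those of 36 h, and the 48 h rise was not called in limma on TPM. Its 72 h libraries overlapped those of 0 h in TPM.

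The OAS genes encode 2'-5' oligoadenylate synthetases, which switch on the RNA-cutting enzyme RNase L, and their OASL relatives. Of the 7, 6 rose at 36 h and all 7 rose at 48 and at 72 h. Oasl2, next to Oasl1 on chromosome 5, had the second largest 36 h change of all members, 8.33 ± 0.31. Its libraries went from 1.81, 2.47 and 1.60 TPM at 24 h to 113, 133 and 86.1 TPM at 36 h. Its next step was small, 0.99 ± 0.22, to 131, 113 and 179 TPM at 48 h, where the libraries overlapped those of 36 h, and the last, 2.26 ± 0.22, took it to 344, 268 and 541 TPM. Oas2 went from at most 0.0322 TPM at 24 h to 0.920, 0.600 and 0.483 TPM at 36 h and to 18.0, 5.53 and 18.8 TPM at 72 h. Oasl1 differed in having a basal level, 3.51, 2.82 and 3.86 TPM at 0 h and 2.99, 2.29 and 2.21 TPM at 24 h, and rose by 2.43 ± 0.22 at 36 h, where its 3.43, 3.16 and 2.77 TPM overlapped the values of 0 h. Oas1b, annotated as a polymorphic pseudogene, had risen by 0.82 ± 0.28 at 12 h and was the highest of the Oas1 genes at 72 h (26.3, 15.7 and 39.4 TPM). Oas3 rose by 1.15 ± 0.38 already at 24 h. Oas1g had 0 counts in every library up to 24 h and 24, 15 and 30 counts at 72 h, at least 72.6-fold higher than at 0 h on the normalised scale (floor of 3 counts over the 0 h group), and it shares 55.1% of its words with other genes, mainly Oas1a.

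Of the MX genes, dynamin-like GTPases that trap viral ribonucleoproteins, Mx2 was switched on late. It had 0 counts in the 6 libraries of 0 and 12 h, 1 count in all at 24 h, 8, 7 and 2 counts at 36 h and 1013, 398 and 613 counts at 72 h (6.27, 1.37 and 3.81 TPM), which is at least 2129-fold above 0 h on the normalised scale. Mx1 did not follow: it was at 0.457, 0.750 and 0.468 TPM at 0 h and at 0.5, 0.226 and 0.352 TPM at 72 h, with overlapping groups. After TMM scaling it rose by 2.86 ± 0.28 over the course, but in TPM with no filter the change was -0.54, so its direction depends on the scale. Mx2 is annotated as a polymorphic pseudogene in GENCODE M21.

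Among the interferon-inducible GTPases, the IRG genes Irgm1 and Igtp had the highest levels at 72 h. At 12 h 3 of the 8 genes rose and 1 fell, where 25.3% of all tested genes rose and 27.6% fell, so the 12 h count is near the background. Irgm1, a regulator of IRG proteins at membranes, was at 44.4, 44.4 and 45.8 TPM at 0 h and fell by 0.65 at 12 h (27.7, 26.7 and 29.1 TPM). From 19.6, 19.6 and 20.4 TPM at 24 h it rose by 3.39 ± 0.12 to 51.7, 47.6 and 44.6 TPM at 36 h, and it reached 121, 96.7 and 194 TPM at 48 h and 392, 258 and 532 TPM at 72 h. Igtp and Irgm2, whose annotations overlap on the same strand of chromosome 11 so that reads may be split between them, both rose at 12 h, by 1.56 ± 0.20 and 2.36 ± 0.23. Igtp was at 1.35, 1.68 and 2.00 TPM at 0 h, at 4.88, 4.70 and 4.73 TPM at 12 h, at 4.02, 3.43 and 4.54 TPM at 24 h, at 4.70, 4.32 and 5.07 TPM at 36 h and at 125, 68.3 and 193 TPM at 72 h. In TPM all 24 h libraries lay below those of 12 h, and the 36 h libraries overlapped both groups, while the TMM-scaled change at the 36 h step was 2.33 ± 0.17.

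The guanylate-binding genes, which attack pathogen-containing vacuoles, lie in 1 cluster on chromosome 3 and stayed low. Gbp2 was at most 0.147 TPM up to 24 h and at 3.33, 1.36 and 5.82 TPM at 72 h. Gbp3 had 0 counts in all 3 libraries at 24 h and 5, 11 and 3 counts at 36 h, at least 16.8-fold higher on the normalised scale, and reached 1.31, 0.593 and 1.76 TPM at 72 h. Gbp7 rose at 12 h from 3 counts in all at 0 h to 28, a ratio of 9.43 (95% counting interval 2.91 to 48.5), was not called at any later step and never passed 0.152 TPM in a library. Iigp1 ended at 0.241, 0.115 and 0.422 TPM.

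Gvin1, a very large interferon-inducible GTPase, had the largest 36 h change of any member, 9.03 ± 0.36. It was at 0.0677, 0.0171 and 0.0249 TPM at 24 h, at 7.19, 4.38 and 3.80 TPM at 36 h, at 6.22, 4.29 and 6.86 TPM at 48 h and at 6.82, 3.20 and 5.93 TPM at 72 h, and the last 3 groups overlapped. After TMM scaling it still rose by 0.84 ± 0.20 and 0.60 ± 0.20 at the last 2 steps, neither of which passed the test in TPM (the 72 h step was -0.16 there), and the 72 h rise missed the threshold without 48 h replicate 2 (edgeR adjusted p = 0.0687). Of the 31-base words of Gvin1, 98.6% also occur in Gm4070, a gene that is no member, so the split between the copies is uncertain. Gm4070 was at 0.162, 0.165 and 0.0304 TPM at 24 h and at 13.8, 10.3 and 8.61 TPM at 36 h.

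**Figure D4:**
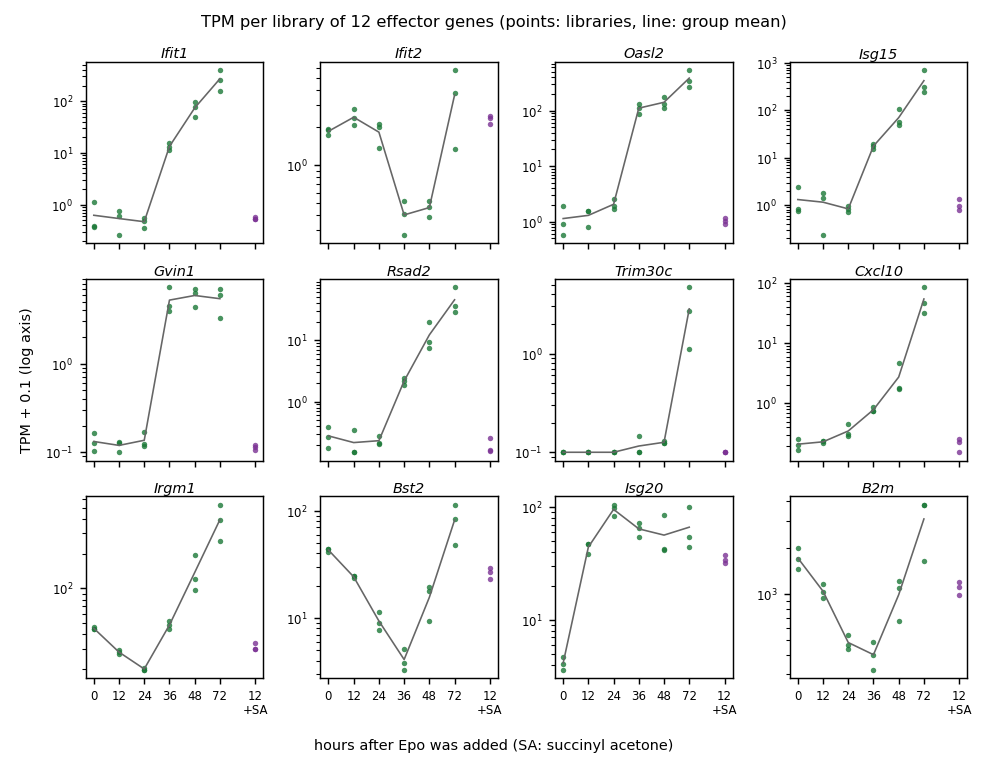
TPM in each library (points) with the group means joined (line), for 12 effector genes, on a log axis after adding 0.1, with the 12 h SA libraries at the right of each panel. Ifit1, Isg15 and Rsad2 climb at each step from 36 h, Oasl2 and Gvin1 make their largest step at 36 h, Trim30c and Cxcl10 rise most at 72 h, Irgm1, Bst2 and B2m fall before they rise, and Isg20 is up by 12 h.

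The ISG15 system attaches a ubiquitin-like protein to targets. Isg15, the modifier, was at 0.726, 0.602 and 0.874 TPM at 24 h, at 18.0, 19.3 and 15.3 TPM at 36 h, at 56.3, 48.0 and 106 TPM at 48 h and at 312, 241 and 714 TPM at 72 h, with no overlap between successive groups. Its log2 changes were 6.83 ± 0.42, 2.57 ± 0.27 and 3.34 ± 0.27, and at 72 h it held 7.46% of the summed TPM of the 50 members, second to B2m. Usp18, which removes Isg15 and damps receptor signalling, was not silent at the start. It was at 4.19, 4.66 and 4.45 TPM at 0 h, fell by 1.93 at 12 h (0.672, 1.63 and 1.13 TPM) and stood at 0.334, 0.519 and 0.578 TPM at 24 h. It then rose by 6.59 ± 0.29 to 11.2, 11.9 and 9.75 TPM at 36 h and ended at 180, 118 and 279 TPM. Herc6, the main mouse ligase for Isg15, moved the other way early: it rose by 1.77 ± 0.22 at 12 h and by 0.93 ± 0.21 at 24 h (14.9, 16.4 and 14.8 TPM, from 2.67, 4.49 and 2.97 TPM at 0 h). At 36 h it was at 13.0, 11.6 and 12.8 TPM, all below 24 h in TPM, although the TMM-scaled change was a rise of 1.76 ± 0.21.

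Parp9, Parp14 and the ubiquitin ligase Dtx3l, which works in a complex with Parp9, are neighbours on chromosome 16, and Parp9 and Dtx3l start head to head with overlapping first parts. Parp9 was at 8.74, 9.32 and 10.4 TPM at 0 h and rose by 0.54 ± 0.14 at 12 h (14.8, 14.7 and 14.7 TPM). It fell by 0.49 at 24 h (8.29, 8.18 and 9.13 TPM), stood at 8.77, 8.75 and 9.02 TPM at 36 h and reached 57.5, 33.2 and 80.8 TPM at 72 h. Parp14 had a 12 h rise of 1.25 ± 0.19 and a 36 h rise of 3.37 ± 0.19, from 2.09, 2.02 and 2.58 TPM to 5.80, 4.93 and 5.36 TPM, and ended at 41.6, 26.8 and 70.0 TPM. Parp12 and Dtx3l fell with Parp9 at 24 h, by 0.77 and 0.50, and after TMM scaling all 4 genes of the family rose at each later step. In limma on log2(TPM + 0.1) neither Parp9 nor Dtx3l was called at 36 h, and the change of Dtx3l was -0.14.

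Of the TRIM genes, Trim25, the ligase that activates the RNA sensor RIG-I, had the highest level at 0 h. It was at 33.3, 33.1 and 36.2 TPM at 0 h, rose by 0.66 ± 0.12 at 24 h (50.6, 46.5 and 52.7 TPM), and was at 18.2, 19.9 and 19.5 TPM at 36 h and 16.9, 10.5 and 21.8 TPM at 72 h. All 72 h libraries lay below all 0 h libraries in TPM, yet after TMM scaling it rose by 0.68 ± 0.12 at 36 h and by 2.38 ± 0.13 over the course, so its direction turns with the scale. The Trim30 genes lie together on chromosome 7 and differed in timing. Trim30a had its first and largest called rise at 36 h (4.79), Trim30d was first called higher at 36 h, and Trim30c only at 72 h. Trim30c had 0 counts in all 9 libraries of 0, 12 and 24 h, 3, 2 and 1 counts at 48 h and 259, 172 and 424 counts at 72 h (2.61, 1.00 and 4.59 TPM), a rise of 7.18 ± 0.55 at the last step and the largest there. Trim30d rose by 4.75 ± 0.29 and Trim30a by 3.85 ± 0.25 at the same step, to 5.62, 2.06 and 8.10 TPM and 13.3, 6.10 and 21.8 TPM. Trim34a rose by 1.97 ± 0.38 at 12 h and shares 48.7% of its words with Trim34b.

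Rsad2 encodes viperin, which makes a chain-terminating nucleotide that stops viral polymerases. It was at 0.107, 0.114 and 0.172 TPM at 24 h, at 2.05, 2.35 and 1.80 TPM at 36 h, at 9.25, 7.47 and 19.5 TPM at 48 h and at 35.3, 28.1 and 72.4 TPM at 72 h, and successive groups did not overlap. Its steps were 6.11 ± 0.42, 3.11 ± 0.27 and 2.75 ± 0.25. Cmpk2, its neighbour on chromosome 12 (12752 bases between start sites) and the kinase that supplies its substrate, stayed near 0: it had 0 counts at 0 h and 4, 13 and 21 counts at 72 h, at most 0.0859 TPM, and was too low for the test. Isg20, an exonuclease, had the largest 12 h change of the tested members. It was at 4.58, 3.99 and 3.51 TPM at 0 h, at 38.7, 47.3 and 46.7 TPM at 12 h and at 82.8, 105 and 98.8 TPM at 24 h, rises of 3.45 ± 0.23 and 1.41 ± 0.19. It was then at 54.8, 66.0 and 71.8 TPM at 36 h and at 53.8, 44.6 and 101 TPM at 72 h. Its 36 h change was 1.56 ± 0.19 after TMM scaling and -0.58 in TPM.

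Bst2, tetherin, which holds budding virions at the membrane, fell before it rose. It was at 41.4, 43.6 and 43.8 TPM at 0 h, at 23.5, 24.3 and 24.5 TPM at 12 h and at 8.95, 7.62 and 11.2 TPM at 24 h, falls by 0.80 and 1.08, and its lowest values were 5.06, 3.72 and 3.19 TPM at 36 h, where TMM scaling gave a rise of 0.94 ± 0.22 and TPM a change of -1.20. It then reached 17.8, 9.30 and 19.3 TPM at 48 h and 83.2, 48.2 and 114 TPM at 72 h, rises of 2.58 ± 0.20 and 3.16 ± 0.18. Ifitm3, which blocks the fusion of incoming viruses, was nearly absent: no library passed 0.372 TPM, and 72 h had 16, 7 and 16 counts.

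The remaining 8 intracellular effectors mostly followed the late pattern, 7 of them rising at 36 h, 7 at 48 h and all 8 at 72 h. Xaf1, a pro-apoptotic zinc finger protein, was at 0.537, 0.409 and 1.05 TPM at 24 h, at 8.54, 4.5 and 5.19 TPM at 36 h, at 20.6, 14.9 and 33.2 TPM at 48 h and at 57.2, 36.0 and 96.5 TPM at 72 h. Rtp4 had 0 counts in all 3 libraries at 24 h and 22, 14 and 7 counts at 36 h, at least 37.9-fold higher on the normalised scale, and rose to 7.6, 3.04 and 10.4 TPM at 72 h. Samd9l, a translation inhibitor, fell by 0.75 at 12 h, from 12.1, 13.8 and 14.1 TPM to 7.36, 6.93 and 8.61 TPM, and ended at 25.2, 12.0 and 36.5 TPM, which overlapped 0 h. Ifi35 rose by 0.58 ± 0.14 at 12 h (51.5, 44.6 and 44.8 TPM) and stood at 11.5, 13.1 and 12.4 TPM at 36 h, where TMM scaling gave a rise of 0.78 ± 0.14 and TPM a change of -1.21. Ifi27 rose at 12 h and at the 3 late steps, and ended at 9.51, 5.54 and 9.98 TPM. Ddx60 was the exception, at no more than 0.120 TPM in any library, with its only called rise, 2.03 ± 0.52, at 72 h. Ifi44 and Sp100 ended at no more than 1.84 and 1.35 TPM.

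Of the secreted products, the chemokine Cxcl10, which draws in T cells, made its largest log2 step last, after rises of 3.52 at 36 h and 2.35 at 48 h. It was at 0.349, 0.189 and 0.211 TPM at 24 h, at 0.782, 0.649 and 0.636 TPM at 36 h and at 1.67, 1.65 and 4.60 TPM at 48 h, and reached 45.6, 31.9 and 84.4 TPM at 72 h, a last step of 5.20 ± 0.18. Lgals3bp was at most 0.587 TPM in a library, was highest at 12 h and was not tested. In antigen presentation, B2m, the light chain of MHC class I, had the highest TPM of the members in every group. It fell from 1994, 1458 and 1686 TPM at 0 h to 467, 436 and 543 TPM at 24 h, by 0.68 and then 0.80 in the fitted changes, was at 484, 401 and 321 TPM at 36 h and ended at 3807, 1638 and 3779 TPM. Tap1, which carries peptides to class I molecules, was at 2.60, 1.87 and 2.91 TPM at 0 h, 0.896, 0.876 and 1.02 TPM at 36 h and 6.26, 2.13 and 7.30 TPM at 72 h. At 36 h B2m and Tap1 rose after TMM scaling (1.73 ± 0.18 and 1.52 ± 0.27) and changed by -0.28 and -0.54 in TPM.

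The spread in TPM between the 3 libraries of a group was larger late in the course, and it was shared by most members. Libraries of a group also differed more across genes in general at those times. Their Spearman correlations were 0.9972 to 0.9979 at 0 h, 0.9831 to 0.9907 at 48 h and 0.9725 to 0.986 at 72 h. Without B2m, the summed TPM of the members was 209 to 224 at 0 h, 349 to 402 at 36 h, 549 to 1124 at 48 h and 1559 to 3830 at 72 h. In this sum replicate 2 was the lowest and replicate 3 the highest at 48 and at 72 h. After TMM scaling the median log2 level of the tested members was also lowest in replicate 2 at both times. At 48 h, however, it was highest in replicate 1 (5.26 against 5.22 in replicate 3). Single members differed too, and Ifit1 at 72 h was lowest in replicate 1 on that scale. The globin share ran from 26 to 28.7% at 48 h and from 31.7 to 37.1% at 72 h, and its part in this spread was not tested. Leaving out any 1 library of a comparison left 41 to 43 members called higher at 36 h, 42 at 48 h, 45 to 47 at 72 h against 48 h and 47 to 49 over the whole course. In these fits 47 to 49 members passed the count filter.

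The list of 53 genes of interferon signalling and virus sensing rose in part at 12 h and at the late steps, with very few counts for the interferons themselves. Of its 12 interferon genes none had enough counts for the test. Together they had 0 counts at 0 h and at 24 h in every library, at most 4 counts in a library at 36 h, 4 to 7 at 48 h and 11 to 23 at 72 h, and their summed level never passed 0.749 TPM. Ifnb1, the type I interferon made first by most cells, had 0 counts up to 24 h, 0, 0 and 3 at 36 h, 4, 5 and 2 at 48 h and 9, 9 and 14 at 72 h, while Ifng, Ifnk, Ifnl2 and 4 of the Ifna genes had 0 counts in every library. A count of 0 allows up to 3 counts, so a lower level was not detectable at this depth.

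Among the 35 tested genes of that list, 15 rose and 6 fell at 12 h, against 25.3% and 27.6% of all genes. At 24 h 7 rose and 5 fell, against 19.1% and 22%. The 12 h rises included the feedback inhibitors Socs1 and Socs3 (4.48 ± 0.49 and 4.66 ± 0.24) and Stat2 (1.00 ± 0.14). At the late steps 23 rose and 6 fell at 36 h, 21 rose and 4 fell at 48 h, and 15 rose and 9 fell at 72 h. Of all tested genes 34.1% rose and 39% fell at 36 h, 20% and 29.7% at 48 h, and 24.7% and 34.5% at 72 h. Irf7, the regulator that amplifies interferon responses, was already higher on the first day, with rises of 1.65 ± 0.27 at 12 h and 0.63 ± 0.23 at 24 h. It went from 3.28, 2.88 and 4.52 TPM at 24 h to 28.2, 31.8 and 26.7 TPM at 36 h and 173, 108 and 275 TPM at 72 h, and its 36 h change was 5.18 ± 0.22. Stat2 and Irf9, partners in the complex that binds the ISRE, rose at each of the 3 late steps, but in TPM Stat2 went from 11.9, 10.9 and 11.7 at 24 h to 6.85, 5.93 and 5.89 at 36 h before it reached 28.8, 17.5 and 43.6 at 72 h. Irf1 was not called at 36 h (0.44 ± 0.26) and rose by 2.06 ± 0.24 and 3.34 ± 0.18 at 48 and 72 h.

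The receptor genes Ifnar1 and Ifnar2 rose by 2.98 ± 0.14 and 2.24 ± 0.14 at 36 h, and Ifnar1 was at 34.2, 32.8 and 26.1 TPM there, above the 14.7, 17.1 and 16.5 TPM of 24 h. Ifngr1, a chain of the interferon gamma receptor, fell by 2.10, 1.45 and 0.81 over the first 3 steps. Ifngr2, the other chain, fell by 1.10 at 12 h but rose by 0.54 ± 0.15 at 24 h, 3.03 ± 0.15 at 36 h and 1.02 ± 0.14 at 48 h. Of the sensors, Ddx58, which encodes the RNA sensor RIG-I, rose by 4.88 ± 0.23 at 36 h, from 1.21, 1.5 and 1.69 TPM to 11.8, 10.7 and 9.08 TPM. Ifih1, which encodes the RNA sensor MDA5, rose by 1.98 ± 0.20, although its 6.30, 5.69 and 6.21 TPM at 36 h overlapped the 6.23, 6.51 and 7.39 TPM of 24 h. Mb21d1, the DNA sensor cGAS, and Tyk2 fell at each late step, by 1.08 and 1.48 at 36 h.

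**Figure D5:**
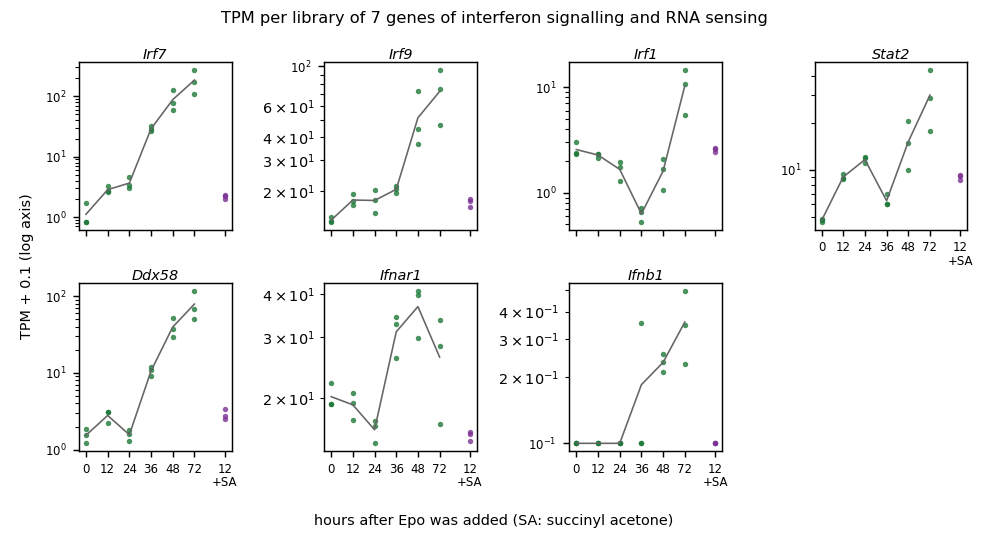
TPM in each library (points) with group means joined (line), for 7 genes of interferon signalling and RNA sensing, on a log axis after adding 0.1, with the SA libraries at the right. Irf7 and Ddx58 step up at 36 h, Irf1 is lowest at 36 h and highest at 72 h, and Ifnb1 never passes 0.397 TPM.

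No effector gene had a called change after 12 h with succinyl acetone. None of the 47 tested members passed the threshold in either direction in edgeR, where 0.0162% of all genes were called higher and 0.364% lower, and none did in DESeq2 or in limma on TPM. A missed threshold does not show that the groups are alike. None had an unadjusted p under 0.05 either, in edgeR or DESeq2, against 6.14% and 8.22% of all tested genes. The median log2 difference of members was 0.00 (range -2.28 to 1.18). The median standard error was 0.246 and the largest 1.97 over the 35 members with a mean count of at least 100. That mean count runs over all 21 libraries, so genes near silence at 12 h enter through the late ones. Mx2 had 0 counts in every library of both groups, and Trim30d had 1, 1 and 0 counts without SA and 0 with it. In such genes no change with SA could be called, and the unadjusted p has the same limit. Isg20 was at 32.2, 37.3 and 34.2 TPM with SA and at 38.7, 47.3 and 46.7 TPM without it, groups that do not overlap (7.24% of all tested genes lay wholly below in the same way), a difference of -0.35 ± 0.19. In a fit of these 6 libraries alone Isg20 was the only member called (edgeR adjusted p = 0.038, log2 difference -0.36). Usp18 was at 1.04, 2.01 and 1.96 TPM with SA and at 0.672, 1.63 and 1.13 TPM without it, and Irgm1 at 33.3, 29.8 and 29.4 TPM against 27.7, 26.7 and 29.1 TPM, differences of 0.53 ± 0.31 and 0.13 ± 0.11. SA was given at 12 h only, before most of these genes came on, so its effect on the late rise was not measured.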

How the data were processed

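Strand-specific polyadenylated RNA-seq libraries (21, in 7 groups of 3) were analysed from tables of 22483 genes. The authors deposited one table of estimated counts per gene and one of TPM values. The submitters' processing notes name STAR 2.5.3a, kallisto and DESeq2, and the builds mm10 and GRCm38.p5; which tool made which table, and the strand setting of counting, are not given in the sources used here. Of the 42 columns used, 0 belonged to no sample. Estimated counts were rounded to whole numbers (78.5% were whole within 1e-06). Genes passing filterByExpr (minimum count 10; 12360 genes) were scaled by TMM and fitted over all 21 libraries with edgeR 4.0.16 (quasi-likelihood, R 4.3.3), with Benjamini-Hochberg adjustment over all tested genes and a threshold of 0.05. The biological coefficient of variation was 11.6%. Standard errors are approximate, obtained from each log2 change and its F statistic. Fits were also run on simulated data in which all libraries shared the same mean profile apart from planted genes. The shift in scale between early and late libraries was not simulated, so that run does not test the late calls. TPM was tested with limma 3.58.1 after adding 0.1 and requiring a mean of 1, and DESeq2 1.42.0 was an alternative. Counting intervals (95%, exact) and the floor of 3 counts cover counting error only.

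The 50 members, the pathway and marker lists and the tests were chosen with earlier results of these data known. Per-library values are given for the member of each family with the highest group mean, the one with the largest called change, and members that go against their family, with others chosen after their values were seen. Positions are from GENCODE M21 (GRCm38), promoter windows from RefSeq (GRCm38.p6), and shared sequence was counted as words of 31 bases. Replicate numbers were checked over 9001 genes. No label explains the numbers, but deviations from the group means correlated above 0.1 in every same-numbered pair in 5 comparisons. The lowest r was 0.151 (the 12 h step), 0.338 (24 h), 0.126 (48 h), 0.287 (72 h) and 0.387 (SA). Same-numbered samples thus tended to deviate alike there, which does not show what a number marks. For the 36 h step (0.027) and the whole course (-0.016) the lowest r was near 0. The main fit left the numbers out. Alternatives were other scalings, no filter, a replicate block, DESeq2, limma on TPM, only the 2 groups compared, and each library left out.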

Additional observations from a re-analysis of the deposited data

How the results depend on the processing

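Scaling by DESeq2 size factors, TMM without globin genes and the DESeq2 test left every count of called members within 1.5 times its value and no direction changed. With library totals, 11 members fell at 24 h (median -0.13), 2 fell at 36 h (median 2.39), and the median over the whole course was 6.87; Trim25, Bst2 and Ifi35 turned at 36 h, to -0.32, -0.071 and -0.22. Without the count filter the 0 to 72 h median was 8.15. The TPM fits are given as log2(TPM + 1), then log2(TPM + 0.1), then the latter without a filter. They called 1, 1 and 1 members higher at 24 h (medians -0.19, -0.33 and -0.16), 14, 17 and 19 higher and 5, 5 and 5 lower at 36 h (medians 0.39, 0.91 and 0.50). The first 2 of them called 26 and 27 higher at 48 h and 28 and 28 higher at 72 h, and all 3 called 1 lower over the whole course. Their medians were 0.96, 1.30 and 1.14 at 48 h, 1.52, 1.54 and 1.53 at 72 h and 2.99, 4.66 and 3.44 over the whole course. At 12 h the second gave a median of 0.20 and the last called 3 lower. In the same order, the 36 h changes turned for Herc6 (-0.28, -0.30, -0.30), Dtx3l (-0.11, -0.14, -0.14), Trim25 (-1.33, -1.37, -1.37), Isg20 (-0.57, -0.58, -0.58), Bst2 (-1.04, -1.20, -1.20), Ifi35 (-1.15, -1.21, -1.21), Tap1 (-0.32, -0.54, -0.54) and B2m (-0.28, -0.28, -0.28), the 72 h step of Gvin1 (-0.13, -0.16, -0.16) and the whole-course change of Trim25 (-1.07, -1.12, -1.12). Without a filter Mx1 also turned, to -0.60 at 36 h and -0.54 over the course. With only the 2 groups compared, the medians were 0.36 at 12 h and 3.01 at 36 h, and 1 member was lower with SA. The cause of these changes was not tested.

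With the replicate block, 12 members rose at 12 h in place of 11 (Parp12 was added), and no other count of called members changed. Leaving out 1 library at a time gave medians of 0 to 0.29 at 12 h, -0.05 to 0.05 at 24 h, 3.26 to 3.50 at 36 h, 1.93 to 2.12 at 48 h, 2.17 to 2.60 at 72 h, 8.42 to 8.67 over the course and -0.03 to 0.01 with SA. It gave 10 to 11 members higher and 5 lower at 12 h, 3 to 4 higher and 3 to 6 lower at 24 h (3 without 24 h replicate 2, 4 without 12 h replicate 1), 41 to 43 higher and 0 to 1 lower at 36 h, 42 higher at 48 h, 45 to 47 at 72 h and 47 to 49 over the course. Depth limits the members with few counts (Oas1g, Cmpk2, Ifitm3, Lgals3bp, Gbp7 and Ddx60).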
